A study of Mus musculus with 8 samples.

Results

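The protein arginine methyltransferases are a family of enzymes, and the RNA of 8 of their genes was examined in fiber cells (FC) of the mouse lens after exposure to cigarette smoke (CS) and in untreated control (Ct) mice. The 8 genes were Prmt1, Prmt2, Prmt3, Carm1, Prmt5, Prmt6, Prmt7 and Prmt8, found by gene symbol among 35275 genes of the deposited table. They were listed for belonging to the family, except that Prmt3 was picked because its value was raised in every CS library. The CS difference of Prmt3 is therefore a description with no test, and it supports nothing else. Prmt9, another gene of the family, stands in the table under its older symbol Prmt10 and was not among the 8.

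The mice were of the strain C57BL/6 in the labels and of its substrain C57BL/6J in the methods, and both groups were made of 4 libraries of lens FC. The CS mice were born to dams that had been put in a whole-body smoke chamber late in pregnancy, and they breathed CS for 5 hours a day on 5 days a week over 3.5 months. The Ct mice were of the same age and untreated. Each library was made from FC, separated from the epithelium under a microscope, of the right eyes of a pool of 4 mice, so that differences between single mice are not seen and a p-value measures the spread between pools. The study used male and female pools in each group.

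Protein arginine methyltransferases move a methyl group from S-adenosylmethionine to the side chain of arginine in histones, RNA-binding proteins and ribosomal proteins. Type I enzymes (Prmt1, Prmt2, Prmt3, Carm1, Prmt6 and Prmt8) end in asymmetric dimethylarginine, type II enzymes (Prmt5 and Prmt9) in symmetric dimethylarginine, and the type III enzyme Prmt7 stops at monomethylarginine. The marks alter transcription, pre-mRNA splicing and RNA-protein granules, and lens FC depend on RNA regulation of that kind because they lose their nuclei as they mature and keep long-lived mRNA.

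Gene starts of the family are shown for 2 members, Prmt3 because its values separated the groups and Prmt8 because it was at or near 0. The RefSeq promoters (GRCm38.p6), from 250 bases before to 50 bases after the start, were matched for 7 of the 8 members, all except Carm1. Capitals mark GCGTG, the core of the dioxin response element that the aryl hydrocarbon receptor binds, or its reverse complement CACGC. The Prmt3 window is chr7:49778108-49778407 on the plus strand, and the Prmt8 window is chr6:127769106-127769405 on the minus strand.
Prmt3: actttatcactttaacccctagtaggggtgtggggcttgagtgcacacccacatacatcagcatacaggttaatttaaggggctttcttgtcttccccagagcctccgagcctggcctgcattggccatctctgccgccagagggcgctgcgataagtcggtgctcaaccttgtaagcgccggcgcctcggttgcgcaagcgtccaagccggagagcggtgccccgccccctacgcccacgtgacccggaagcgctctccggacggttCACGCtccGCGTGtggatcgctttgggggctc
Prmt8: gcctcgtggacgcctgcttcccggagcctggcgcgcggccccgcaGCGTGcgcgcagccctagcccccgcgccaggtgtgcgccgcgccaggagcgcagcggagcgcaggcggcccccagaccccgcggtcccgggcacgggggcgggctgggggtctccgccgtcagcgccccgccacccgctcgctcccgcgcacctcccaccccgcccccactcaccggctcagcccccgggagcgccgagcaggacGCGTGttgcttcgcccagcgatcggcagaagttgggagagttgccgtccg
The Prmt3 window held 2 such matches, at 18 and 26 bases after the start, and the Prmt8 window also held 2. Prmt7 had 2 matches, Prmt1, Prmt2 and Prmt5 had 1 each, and Prmt6 had 0, while 32.4% of 32851 promoters of the same length held at least 1 on either strand. Prmt3 also had 1 match of CACGTG, the E-box core, which was in 7.15% of promoters, and Prmt1 had 1 as well. The antioxidant response element core TGACNNNGC was found in 0 of the 7 windows and in 12.4% of all promoters. Prmt3 had 24 CpG dinucleotides in its window and Prmt8 had 44, against a median of 7 over all promoters. The 7 windows ran from 16 to 44, so a high count was shared by the members. GCGTG itself holds a CpG, and the 32.4% is over all promoters, which were not matched for CpG. Prmt8 had 2 windows in RefSeq, and the first is shown. The motif matches describe letters in a window and say nothing of binding.

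Expression was measured as FPKM, the fragments of a gene scaled by its length and by the mapped fragments of the library, computed by the authors. The low values fell on steps of whole reads, from which the reads behind each value were recovered for 9772 of 9794 tested genes, and the median was 313 reads per gene and library. The libraries were of similar depth, with an estimated 18100000 to 23300000 fragments each and a mean depth in CS that was 1.07 times that of Ct. Xist was at 0 to 0.0113 FPKM in replicates 1 and 2 and at 41.1 to 49.0 FPKM in replicates 3 and 4, in both groups alike. All 10 fiber markers were present in every library, with summed values of 326100 to 341800 FPKM, so the tissue label held. All 10 rod photoreceptor markers had a higher mean in CS, and their values summed to 11.1 to 29.9 FPKM in Ct and 32.4 to 94.4 FPKM in CS (mean log2 difference 1.39, p = 0.0286 in a two-sided exact permutation test, the lowest value possible with 4 libraries a group, 0.2 after Benjamini-Hochberg adjustment over 7 marker lists). The other 6 lists gave exact permutation p values of 0.0571 to 0.8, with 1.88 to 5.17 FPKM in CS against 0.788 to 2.09 in Ct for the pigment epithelium list, whose marker Best1 was listed at 0 throughout, 0.5 to 22.3 against 0.187 to 1.73 FPKM for red blood cells, and 47.4 to 76.6 against 56.8 to 116 FPKM for the lens epithelium. In bulk samples, fewer cells of a type and less RNA per cell cannot be told apart.

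The genes lie on 7 chromosomes of GRCm38, with Prmt1 and Prmt3 both on chromosome 7. Prmt1 spans 44975989 to 44986568 on the minus strand there. On other chromosomes, Prmt5 spans 54507187 to 54517525 on the minus strand of chromosome 14, and Prmt2 spans 76207222 to 76237865 on the minus strand of chromosome 10. Carm1 spans 21546894 to 21592623 on the plus strand of chromosome 9, and Prmt7 spans 106210936 to 106252794 on the plus strand of chromosome 8. Prmt6, with 2 exon blocks, spans 110246109 to 110250998 on the minus strand of chromosome 3, and Prmt8 spans 127689011 to 127769472 on the minus strand of chromosome 6. In all, 7 of the 8 members passed the filter of a mean of at least 1.0 FPKM in a group, and Prmt8 did not.

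The family was led by Prmt1 and Prmt5, the main enzymes for asymmetric and symmetric dimethylarginine. Prmt1 averaged 13.8 FPKM over the 8 libraries and Prmt5 12.7 FPKM, which placed them above 78.3% and 76.8% of the tested genes. Prmt2, a type I enzyme with an SH3 domain, followed at 8.88 FPKM, and Carm1, a coactivator that methylates histone H3 and splicing factors, at 4.24 FPKM. Prmt3, a mostly cytosolic enzyme that methylates the ribosomal protein Rps2, averaged 3.37 FPKM, close to Prmt7 at 3.15 FPKM. Prmt6, a nuclear enzyme that methylates histone H3, was lowest of the expressed members at 1.87 FPKM, above 20.4% of the tested genes.

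The order of these levels was compared between neighbours by a two-sided exact sign-flip permutation test of the log2 ratio over the 8 libraries, adjusted over 6 pairs, and the pairs that hold Prmt3 are given with no p because their ratios carry the difference it was picked for. Prmt5 was above Prmt2 in 8 of 8 libraries by 1.44-fold, Prmt2 above Carm1 in 8 of 8 by 2.08-fold and Prmt7 above Prmt6 in 8 of 8 by 1.74-fold (exact p = 0.00781 each, the smallest possible, adjusted p = 0.0156 each). The test covers the spread between libraries, and not an error of gene length, which all libraries share. The length behind the FPKM was 3472 bases for Prmt7 and 3059 for Prmt6, against annotated lengths of 6125 and 4197. Carm1 and Prmt6 also share exon bases with genes on the other strand. Prmt1 was above Prmt5 by 1.09-fold in 6 of 8 libraries (exact p = 0.0391, adjusted p = 0.0586), which did not pass the adjusted threshold. Over both groups Carm1 was above Prmt3 by 1.28-fold in 6 of 8 libraries, with 2 of 4 in CS, and Prmt3 was above Prmt7 by 1.06-fold in 6 of 8. With Ct libraries alone Prmt7 stood above Prmt3, and with CS libraries alone Prmt3 stood above Prmt7, a change that the choice of Prmt3 bears on.

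**Figure D1:**
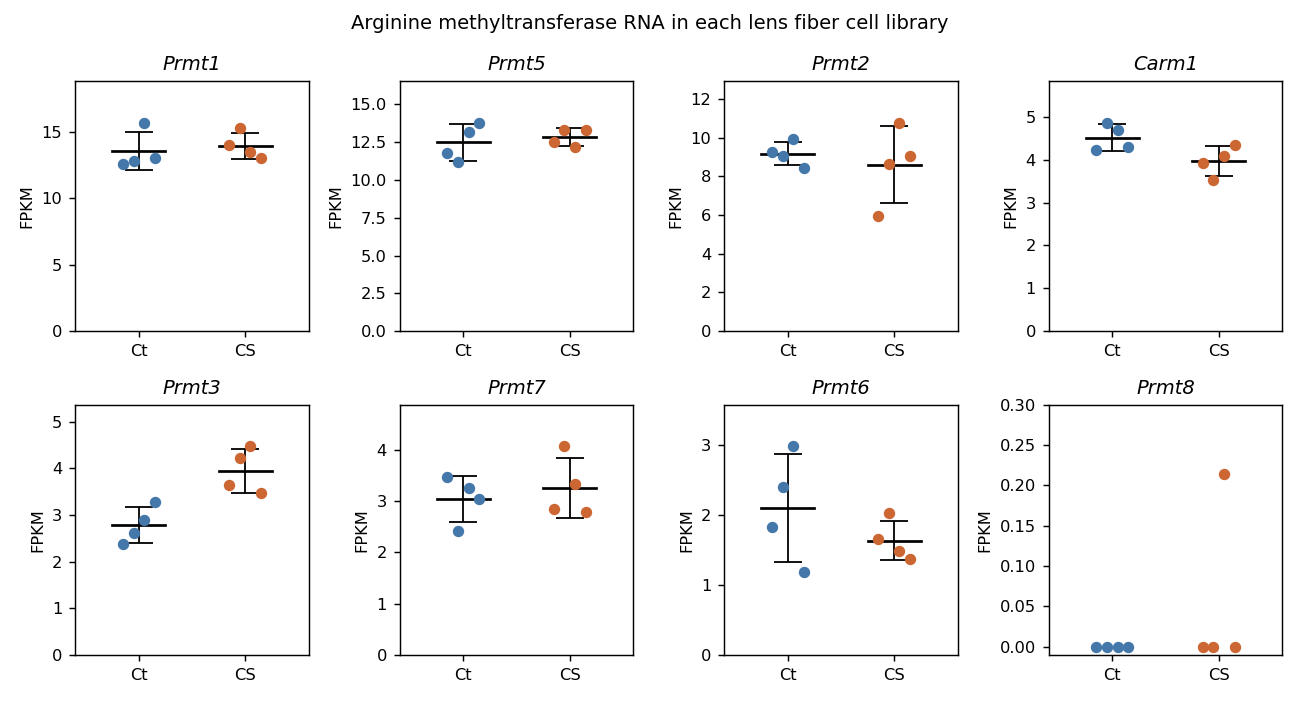
Expression in FPKM (y axis, from 0 and with its own scale in each panel; the Prmt8 axis starts just below 0) of the 8 members in the 4 Ct and 4 CS libraries, with a point per library and the mean and SD as a line and bars, which are left out for Prmt8. Prmt3 is the one panel of the 7 expressed members whose groups do not overlap, from 2.37 to 3.28 FPKM in Ct and from 3.47 to 4.47 FPKM in CS.

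Prmt3 separated the groups, which is how it was picked, while 1.8% of all tested genes had every CS library above every Ct library and 1.29% had every CS library below. The gene lies on chromosome 7 from 49778346 to 49858265 on the plus strand of GRCm38 and has 18 exon blocks in the GENCODE annotation. Its FPKM was 2.37, 2.61, 2.88 and 3.28 in Ct replicates 1 to 4 and 3.65, 4.21, 4.47 and 3.47 in CS replicates 1 to 4. These rest on 118, 129, 168 and 149 reads in Ct and on 193, 244, 230 and 188 reads in CS. The lowest CS library (3.47) stood just above the highest Ct library (3.28). The mean was 2.78 ± 0.394 FPKM in Ct and 3.95 ± 0.471 FPKM in CS (SD, n = 4 each). On the log2(FPKM + 0.1) scale the difference was 0.49 (SE 0.13), a 1.41-fold higher level. It ranged from 0.39 to 0.57 over 19 other settings of the processing, and its sign carries no weight because the gene was picked for it. Nearly all of the 75-base stretches of its transcripts were its own, with 1.14% found in another gene.

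Set against other members, Prmt3 also had a higher standing in CS, again as a description. The ratio of Prmt3 to Carm1 was 0.536 to 0.766 in Ct and 0.798 to 1.19 in CS, and its ratio to Prmt7 was 0.684 to 1.08 in Ct and 1.04 to 1.34 in CS. Its share of the summed FPKM of the family was 5.85% ± 0.780 in Ct and 8.17% ± 0.663 in CS (SD, n = 4 each). The sum itself was 47.6 ± 3.40 FPKM in Ct and 48.3 ± 2.91 FPKM in CS.

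The rod markers stood beside Prmt3 in the same libraries. Their mean log2(FPKM + 0.1) was 0.67, 0.11, 0.78 and -0.51 in Ct replicates 1 to 4 and 1.29, 1.85, 2.56 and 0.91 in CS replicates 1 to 4. Among the CS libraries, the order by rod markers was that of Prmt3, with replicate 3 highest and replicate 4 lowest. Among the Ct libraries, Prmt3 was highest in replicate 4, where the rod markers were lowest. The part of rod RNA in the Prmt3 difference was not tested.

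**Figure D2:**
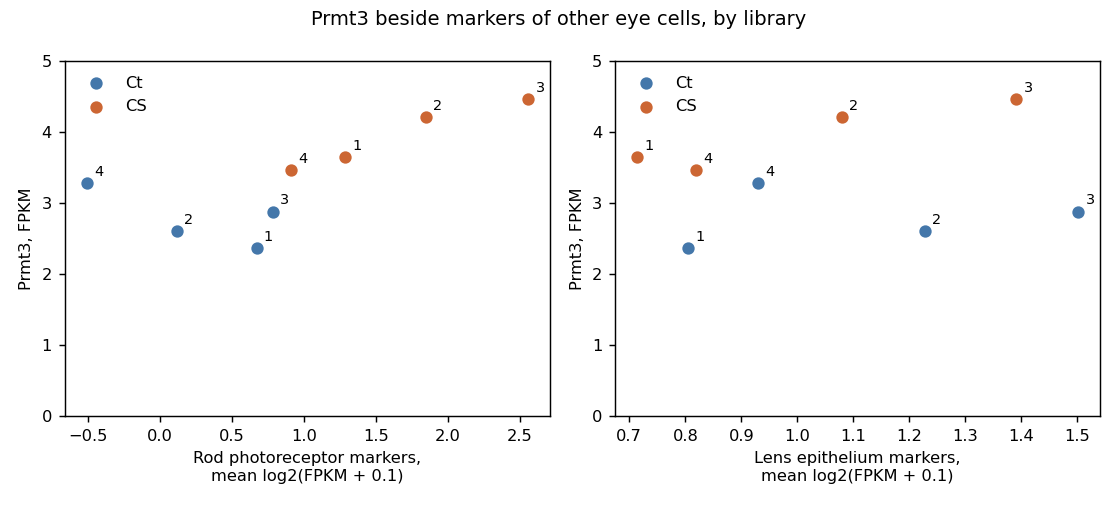
Prmt3 in FPKM (y axis) against the mean log2(FPKM + 0.1) of the rod photoreceptor markers and of the lens epithelium markers (x axes), with a point per library, numbered by replicate and coloured by group. CS libraries lie higher on both axes for rods, and CS replicate 3 has the highest rod mean (2.56) and the highest Prmt3 (4.47 FPKM), while the epithelium means overlap between the groups.

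The other 6 expressed members did not pass the test. In limma with Benjamini-Hochberg adjustment, 0 of 6 had an adjusted p under 0.05 and 0 had an unadjusted p under 0.05, against 1 gene (0.0102%) and 473 genes (4.83%) of the 9794 tested, and the smallest adjusted p was 0.956. The groups overlapped in each of these 6 members, while 3.08% of all tested genes had groups that did not overlap. Their median log2 difference was -0.04, with 3 positive and 3 negative, beside 0.0043 over all tested genes. Because 0.1 FPKM was added before the log2, the differences of the lower members, such as Prmt6, are understated.

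Prmt1, the most abundant type I enzyme, was similar in the groups. Its FPKM was 12.6, 12.8, 15.7 and 13.1 in Ct and 14.0, 15.3, 13.5 and 13.0 in CS. Ct replicate 3 was the highest library of all, and the CS values lay inside the Ct range. The log2 difference was 0.05 (SE 0.09, 95% interval -0.14 to 0.24, exact permutation p = 0.571, limma adjusted p = 0.985), and it was 0.12 without Ct replicate 3 and 0.0025 without CS replicate 2. The interval reaches to both sides of 0, which does not show that the groups are alike.

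Prmt5, which with Wdr77 methylates the Sm proteins of the spliceosome, gave 11.8, 11.2, 13.2 and 13.8 FPKM in Ct and 12.5, 13.3, 12.2 and 13.3 FPKM in CS. The CS libraries again lay inside the Ct range. The log2 difference was 0.04 (SE 0.08, 95% interval -0.13 to 0.22, exact permutation p = 0.6, limma adjusted p = 0.985), and it was -0.0065 without Ct replicate 2. Prmt7 gave 3.46, 2.42, 3.26 and 3.04 FPKM in Ct and 2.84, 4.07, 3.33 and 2.80 FPKM in CS. Its groups overlapped over most of their range, with CS replicate 2 the highest. The difference was 0.09 (SE 0.15, 95% interval -0.24 to 0.42, exact permutation p = 0.6, limma adjusted p = 0.985), and it was -0.02 without CS replicate 2 and -0.01 without Ct replicate 2.

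Prmt2 and Carm1 had lower means in CS, without passing the test. Prmt2 gave 9.24, 9.04, 9.91 and 8.45 FPKM in Ct and 5.94, 8.64, 10.8 and 9.05 FPKM in CS. CS replicate 1 was the lowest and CS replicate 3 the highest library of all, so the CS libraries surrounded the Ct libraries. The log2 difference was -0.12 (SE 0.15, 95% interval -0.45 to 0.21, exact permutation p = 0.743, limma adjusted p = 0.985), and it was 0.05 without CS replicate 1. Carm1 gave 4.22, 4.86, 4.69 and 4.29 FPKM in Ct and 3.91, 3.53, 4.09 and 4.35 FPKM in CS. Here 3 of the 4 CS libraries lay below all Ct libraries, and CS replicate 4 lay above 2 of them. The difference of -0.18 (SE 0.10, 95% interval -0.40 to 0.04) had the smallest p of the 6 members (limma p = 0.095, exact permutation p = 0.0857, limma adjusted p = 0.956). The exons of Carm1 overlap those of Yipf2 on the other strand over 21.1% of their length, and with no strand stated for the counting, the reads of both genes cannot be told apart there.

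Prmt6 had the widest spread relative to its mean among the expressed members in Ct (CV 36.5%). Its FPKM was 1.82, 2.40, 2.98 and 1.19 in Ct and 1.66, 2.02, 1.48 and 1.38 in CS, on 66 to 212 reads. The Ct libraries held both the highest and the lowest value. The log2 difference was -0.28 (SE 0.25, 95% interval -0.83 to 0.26, exact permutation p = 0.371, limma adjusted p = 0.968), and without Ct replicate 4 it was -0.52 with an unadjusted limma p of 0.0279. Other omissions made the Prmt6 difference smaller, with -0.10 without Ct replicate 3 and -0.20 without Ct replicate 2. Its range over all omissions of 1 library was -0.52 to -0.10, so its size depended on single Ct libraries. The antisense gene C130013H08Rik covers 23.4% of the Prmt6 exon length, with the same limit as for Carm1.

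**Figure D3:**
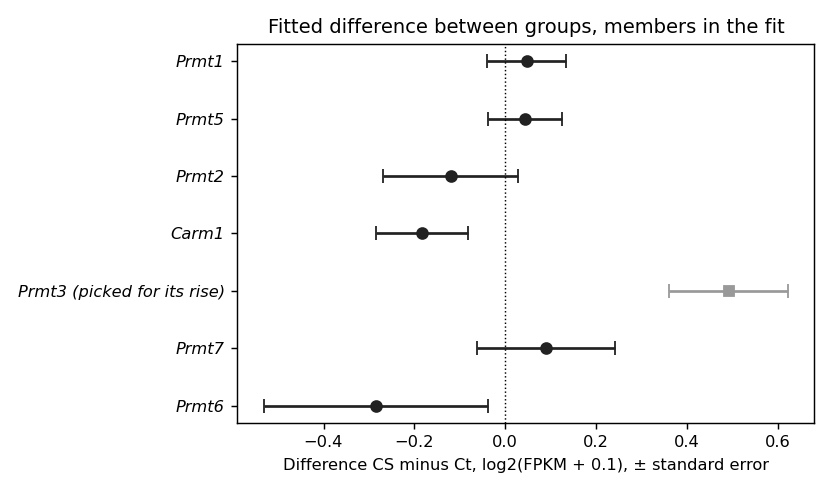
Difference in mean log2(FPKM + 0.1) between CS and Ct libraries (x axis) for each expressed member, with the SE as a bar, 0 as a dotted line and Prmt3 in grey. Prmt3, which was picked for its difference, stands at 0.49, and the other 6 lie between -0.28 and 0.09.

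Prmt8, a brain enzyme that is held at the plasma membrane by a lipid, was at 0 in 7 of the 8 libraries. CS replicate 3 held 0.215 FPKM. With a single value above 0, the steps do not give its reads. If the annotated exon length of 2724 bases is the length behind the FPKM, the value stands for 12 reads, and 0 reads in the other 7 libraries allow up to 0.0473 to 0.0608 FPKM, the value of 3 reads, for counting error only. For the 7 expressed members the length behind the FPKM was shorter than the annotated one (2507 against 5996 bases for Prmt3), and a shorter length for Prmt8 would mean fewer reads and higher limits. CS replicate 3 was also the library with the highest rod marker mean, and the source of these reads was not tested. The exact permutation p of the group difference was 1, which was fixed in advance. A single value above 0 gives the same size of difference under every assignment. The gene was too low for the fit across genes. Prmt9, which methylates a spliceosomal protein, gave 0.983, 0.664, 1.08 and 1.42 FPKM in Ct and 1.06, 1.12, 1.12 and 0.797 FPKM in CS. Its groups overlapped fully, with a log2 difference of 0.01 (SE 0.25, 95% interval -0.54 to 0.57, limma adjusted p = 0.997).

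The relative spread between pools, given as the coefficient of variation (CV), differed among the members. Pools hold different mice, so a spread beyond read counting is not particular to these genes. The CV of Prmt2 was 6.59% in Ct and 23.3% in CS, and that of Prmt6 was 36.5% in Ct and 17.4% in CS, where counting would give 5.07% to 9.61%. The CS value of Prmt2 rests much on CS replicate 1, at 5.94 FPKM beside 8.64, 10.8 and 9.05 FPKM in CS replicates 2 to 4. The CV of Prmt1 was 10.7% in Ct and 7.02% in CS, and that of Prmt5 was 9.66% and 4.47%, above Prmt2 in Ct and below it in CS. Prmt3 had a CV of 14.2% in Ct and 11.9% in CS, where counting would give 8.46% and 6.85%. The variance within groups was 11.1 times the counting variance for Prmt2, 10.2 times for Prmt6, 2.83 times for Prmt3 and 1.95 times for Carm1.

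**Figure D4:**
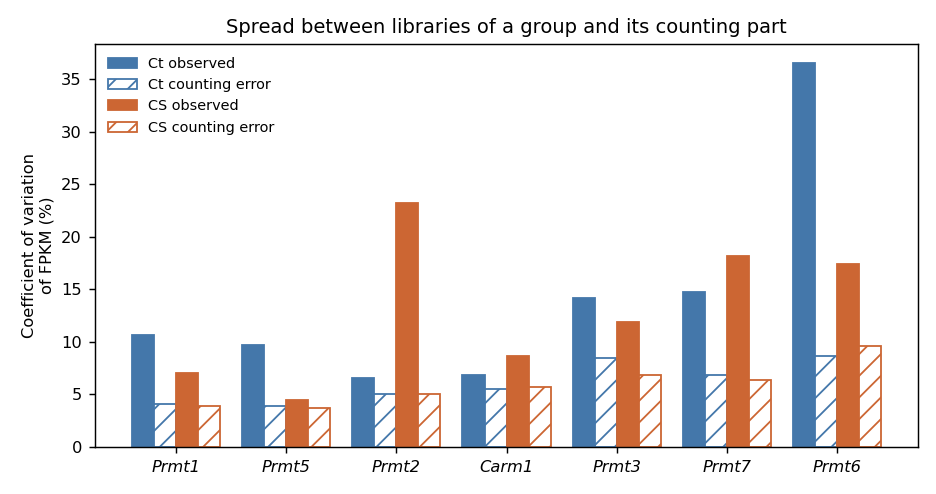
Coefficient of variation between libraries in percent (y axis, from 0) for each expressed member in Ct and CS, as filled bars, beside hatched bars for the value that read counting alone would give. Prmt6 in Ct (36.5%) and Prmt2 in CS (23.3%) stand highest, and Prmt5 in CS (4.47%) is closest to its counting value of 3.66%.

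Other genes of the arginine methylation pathway were taken from 5 lists with 87 genes, of which 66 were expressed enough to be tested. None of the 66 passed an adjusted p of 0.05 in limma with Benjamini-Hochberg adjustment (smallest adjusted p = 0.956). An unadjusted limma p under 0.05 was found for 7 genes (10.6%), 3 higher and 4 lower in CS, beside 2.75% higher and 2.08% lower of all tested genes. The lists were chosen with earlier results of these data known, and the 7 include Caprin2, which the study picked out on these samples. The shares are therefore a description and no test of enrichment. Without single libraries the count of such genes ran from 2 to 8, with 2 without Ct replicate 2, Ct replicate 3, CS replicate 1 or CS replicate 4, 4 without Ct replicate 1, CS replicate 2 or CS replicate 3, and 8 without Ct replicate 4. Each of the 7 genes had an unadjusted p above 0.05 without at least 1 of the libraries. The median log2 difference over the 66 was -0.01.

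Of 9 partners and regulators of the enzymes, all were tested and 0 had an unadjusted limma p under 0.05, with a median of 0.01. Wdr77, the partner of Prmt5, was 3.16 ± 0.477 FPKM in Ct and 2.91 ± 0.516 FPKM in CS (log2 difference -0.12, exact permutation p = 0.571), and Coprs, which binds Prmt5 to histone H4, was the most abundant at a log2 difference of 0.06. Of 12 genes of the S-adenosylmethionine cycle, which makes the methyl donor and clears its product, 8 were tested, 0 had an unadjusted p under 0.05 and the median was -0.02. Ahcyl2 was the most abundant of them, with a difference of -0.09.

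Among 13 Tudor domain genes, whose products bind methylated arginine, 7 were tested and 1 had an unadjusted limma p under 0.05. Smndc1, a splicing factor, was 10.5 ± 0.948 FPKM in Ct and 8.78 ± 1.22 FPKM in CS (log2 difference -0.27, limma p = 0.0278, exact permutation p = 0.0857). Tdrd7, whose loss is known to cause cataract, was the most abundant at 392 FPKM in Ct and 402 FPKM in CS (log2 difference 0.04, exact permutation p = 0.486).

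Among 41 substrates, 39 were tested, 3 were higher and 1 lower at an unadjusted limma p under 0.05, and the median was 0.01. Pabpc1, a poly(A)-binding protein, had 291 ± 22.3 FPKM in Ct and 319 ± 11.2 FPKM in CS (log2 difference 0.14, limma p = 0.0296, exact permutation p = 0.0286), with groups that did not overlap. Hnrnpu, a nuclear RNA-binding protein, had a difference of 0.26 (limma p = 0.0474, exact permutation p = 0.0857). Caprin2, a protein of RNA granules that the study picked out on these samples, had a difference of 0.17 (limma p = 0.039, exact permutation p = 0.0857), which is not independent evidence. Foxo1, a transcription factor that Prmt1 methylates, was 1.32 ± 0.192 FPKM in Ct and 0.902 ± 0.157 FPKM in CS (log2 difference -0.50, limma p = 0.0333, exact permutation p = 0.0286), with groups that did not overlap on 92 to 199 reads. Over the 5 lists, groups did not overlap for 2 of 66 tested genes, no larger a share than the 3.08% of all tested genes. Foxo1 reached the filter of 1.0 FPKM through Ct, the group where it was higher, and with the filter set on the mean over all libraries, which was 1.11 FPKM, its limma p value was 0.0302. The unadjusted p was above 0.05 under median centring and without the variance trend for Pabpc1 (limma p values of 0.0925 and 0.111) and for Caprin2 (0.0606 and 0.0822), and under quantile normalization for Caprin2 (0.0665), and for Hnrnpu it was 0.0502 with a pseudocount of 1, 0.0506 with a robust trend, 0.0569 with the replicate number as a block and 0.0503 with a term for replicates 1 and 2 against 3 and 4. Rps2, the substrate of Prmt3, was 1818.5 ± 85.5 FPKM in Ct and 1802.7 ± 77.1 FPKM in CS (log2 difference -0.01, exact permutation p = 0.8).

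Of 12 genes for free methylarginine and for citrulline, 3 were tested, and 2 had an unadjusted limma p under 0.05. Ddah1 and Ddah2, which break down asymmetric dimethylarginine released from proteins, were both lower in CS, and neither passed the adjusted threshold. Ddah2 gave 7.64, 7.96, 10.4 and 7.74 FPKM in Ct and 4.41, 8.42, 6.57 and 5.24 FPKM in CS. Ct replicate 3 was highest, and CS replicate 2 stood above 3 Ct libraries. The log2 difference was -0.48 for Ddah2 (limma p = 0.02, exact permutation p = 0.114) and -0.32 for Ddah1 (limma p = 0.0462, exact permutation p = 0.0571). They were -0.37 and -0.25 without Ct replicate 3 (limma p values of 0.064 and 0.132), -0.33 and -0.24 without CS replicate 1 (0.0645 and 0.134), and -0.41 and -0.33 without CS replicate 4 (0.0564 and 0.0683). The Ddah1 value also missed an unadjusted p of 0.05 without Ct replicate 1, Ct replicate 2 or CS replicate 3, with no filter on low values (0.0529), and with a term for replicates 1 and 2 against 3 and 4 (0.0569), the libraries that Xist set apart. Ct replicate 3 had the highest epithelium marker mean, and the part of epithelial RNA was not tested. Jmjd6, a dioxygenase proposed to act on methylated arginine, had a difference of 0.05.

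**Figure D5:**
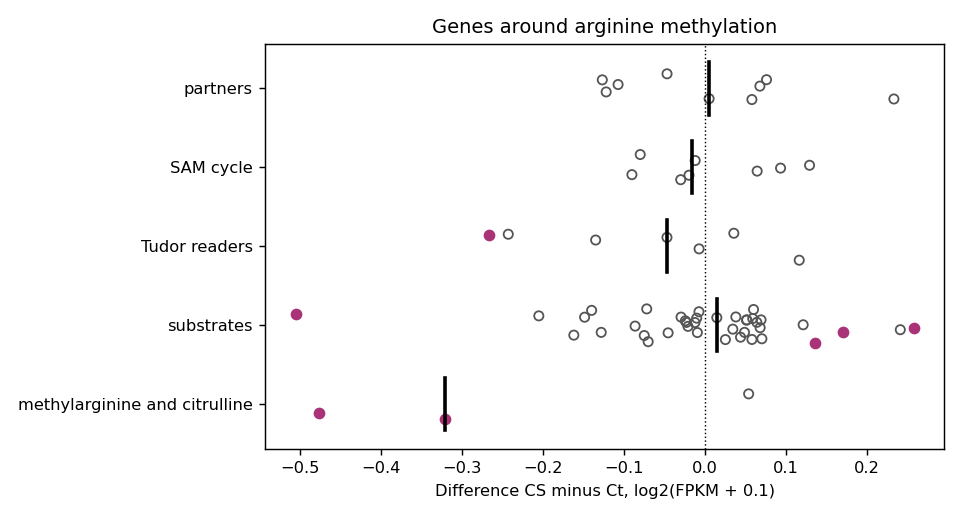
Difference in mean log2(FPKM + 0.1) between CS and Ct libraries (x axis) for each tested gene of the 5 pathway lists (y axis; SAM is S-adenosylmethionine), with a point per gene, filled where the unadjusted limma p was under 0.05, and a bar at the median of each list. The points of each list lie on both sides of 0, from -0.50 (Foxo1) to 0.26 (Hnrnpu).

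The genes whose values followed Prmt3 most closely were Tspan10 (Pearson r = 0.97 over the 8 libraries), Gm17275 (0.95), Rbfa (0.94), Arl5a (0.94) and Arfgap2 (0.93). These rest on the difference between the groups, which Prmt3 was picked for, and on 9794 genes searched. On deviations from the group means, the closest were Tspan18 (0.97), Rpl14-ps1 (0.97), Pnpla3 (0.96) and Abi3bp (0.96), none of which was among the former. Among the family over the 8 libraries, Prmt5 (r = 0.44), Prmt1 (0.37) and Prmt7 (0.36) went with Prmt3. Carm1 (-0.68) and Prmt6 (-0.41) went against it, and Prmt2 (-0.07) was near 0. On deviations from the group means, in that order, the values were 0.46, 0.37, 0.34, -0.26, -0.19 and 0.28. All points share the 8 libraries and their depth, and the values are descriptions.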

How the data were processed

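RNA of lens FC was sequenced in 8 libraries, 4 per group, as paired reads of 150 bases. Per the labels and methods, the authors aligned reads to GRCm38 with STAR 2.5, counted them per gene with HTSeq 0.6.1 and deposited FPKM per library. The annotation release is not given in the sources used here, and the kit and counting are not described as stranded. The log2 fold change, p-value and adjusted p-value columns deposited by the authors hold their own comparison and were not used.

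Groups and replicate numbers came from the sample titles. Genes averaging 1.0 FPKM or more in Ct or in CS entered the fit, made on log2(FPKM + 0.1) by limma 3.58.1 in R 4.3.3 (lmFit, eBayes with a variance trend, two-sided, Benjamini-Hochberg over 9794 genes). The fit was tested on simulated data. Exact permutation tests ran over 70 assignments of the libraries. Reads were recovered from the FPKM steps, with 99.8% of tested genes within 0.02 of whole reads, and were also fitted with limma-voom. Fragment totals are estimates from GENCODE exon lengths, on which 534 of 8609 genes gave the same depth after rounding, the most frequent value, which was taken. Pools are the replicates, and FPKM of different genes were compared per length.

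The members and lists were chosen with earlier results of these data known. Genes named are the members, Prmt9, listed pathway genes with an unadjusted p under 0.05, the most abundant of each list, Rps2, Wdr77, markers, and the 5 most like Prmt3 by each measure, of which 1 is not reported here. Alternatives were other pseudocounts, filters and scalings, eBayes without trend or robust, a replicate block and leaving out each library. A term for replicates 1 and 2 against 3 and 4 was added after seeing the data. Promoters are from RefSeq. Python 3.11.15, numpy 2.4.6, pandas 2.3.3, scipy 1.17.1 and matplotlib 3.10.9 were used.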

Additional observations from a re-analysis of the deposited data

Results flagged for a closer look

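In 4 of 58 groups of 4 libraries, the highest library stood farther from the others than Dixon's test allows at its 95% critical value, where chance alone gives about 2.9. Prmt1 was 15.7 FPKM in Ct replicate 3 and 12.6 to 13.1 FPKM in the other Ct libraries. Ddah2 was 10.4 FPKM in the same library and 7.64 to 7.96 in the others, and Ahcyl2 was 16.9 FPKM there and 15.03 to 15.33 in the others. Prmt8 was 0.215 FPKM in CS replicate 3 and 0 in the other CS libraries, where any value above 0 would have been set apart, so 3 groups are to be read beside the number from chance.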

How the results depend on the processing

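The libraries are 4 against 4 pools, and 66 to 244 reads stand behind each value of Prmt3 and Prmt6. Over 20 named genes, 377 of 392 alternative values kept their direction and 15 reversed. Other filters, the eBayes options, the replicate block and the term for replicates 1 and 2 against 3 and 4 leave a log2 difference unchanged. Their values could not reverse, so the count overstates how stable the directions are. Genes with an unadjusted limma p under 0.05, 473 as reported, were 862 with no filter on low values, 226 with a mean of at least 5 FPKM, and 418 to 525 leaving out single libraries. Those with an adjusted p under 0.05, 1 as reported, were 0 with no filter and 0 with eBayes without trend, 2 with limma-voom on recovered reads, and 0 to 1 leaving out single libraries (0 without Ct replicate 4). Replicate numbers were not taken as pairs, since the labels give no pairing. The correlations of same-numbered libraries were 0.012 to 0.16, beside -0.126 to 0.055 for other numbers. As 3 of the 4 same-numbered values were above all of these, the correlations are no reason against pairing. The replicate block gave 5 genes with an adjusted p under 0.05 and changed no member's call. The added term for replicates 1 and 2 against 3 and 4 gave 0 members other than Prmt3 with an unadjusted p under 0.05 and 5 pathway genes (without Hnrnpu and Ddah1). Of the 6 other members, 0 to 1 had an unadjusted p under 0.05 leaving out single libraries (Prmt6 without Ct replicate 4). Pathway genes, 7 as reported, were 4 with a mean of at least 5 FPKM and 2 to 8 leaving out single libraries. Neighbouring pairs of levels past the adjusted threshold, 3 as reported, were 0 with Ct or CS libraries alone, where the smallest exact p is 0.125, and 3 to 4 leaving out single libraries (Prmt1 over Prmt5 passed without Ct replicate 4 or CS replicate 4). The Prmt8 difference, 0.0537 FPKM, was 0 to 0.0715, with 0 without CS replicate 3. Rod markers, 1.39 as reported, were 0.886 with a pseudocount of 1 and 1.61 with 0.01 (exact permutation p = 0.0286 in both). Leaving out single libraries they were 1.08 to 1.63, where 3 against 4 cannot go below an exact permutation p of 0.0571. Leaving out single libraries reversed Prmt2 (-0.24 to 0.045), Prmt5 (-0.0065 to 0.093), Prmt7 (-0.019 to 0.16), Prmt9 (-0.16 to 0.17, and -0.00039 with a pseudocount of 1), Coprs (-0.025 to 0.14), Rps2 (-0.041 to 0.014), Wdr77 (-0.20 to 0.0042), epithelium markers (-0.25 to 0.013) and leukocyte markers (-0.23 to 0.11, and 0.18 with a pseudocount of 0.01). The causes of the reversals were not tested.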
